A study of Mus musculus with 6 samples.

Results

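The 10 genes described here encode growth factors that macrophages are known to make: Igf1, Pdgfa, Pdgfb, Hbegf, Areg, Ereg, Vegfb, Hgf, Gdf15 and Gdf3. They were chosen by symbol from the 25711 gene entries of the deposited table of counts and FPKM values, and all 10 were found. RNA was measured by sequencing in 6 libraries of wild-type mouse bone marrow-derived macrophages, which are cells grown in culture from marrow progenitors. The control group, labelled as control at 24 h, had 3 libraries, and the CCL7 group had 3 libraries from cells kept for 24 h with this chemokine at 500 ng/ml. The series asks how CCL7 relates to macrophage polarization in rheumatoid arthritis. The labels do not say what the controls received in place of CCL7, nor whether replicates stand for separate animals or cultures. The p-values therefore measure at most the spread between these libraries, which may be technical.

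Growth factors secreted by macrophages act on neighbouring fibroblasts, vessels and epithelia through receptors on the surface of these cells. Igf1 encodes insulin-like growth factor 1, Hgf encodes hepatocyte growth factor, and Pdgfa and Pdgfb encode the chains of platelet-derived growth factor. Hbegf, Areg and Ereg encode ligands of the EGF receptor family that are made as membrane proteins and released by proteases. Vegfb belongs to the vascular endothelial growth factors, and Gdf15 and Gdf3 belong to the TGF-beta superfamily. Factors of this kind are known for their part in wound repair and, in joints, in the growth of synovial tissue.

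With CCL7, 6 of the 10 genes fell: Hgf, Igf1, Gdf3, Gdf15, Pdgfb and Vegfb, with log2 changes from -1.63 to -0.90. Pdgfa did not pass the threshold, and its direction depended on the scaling between libraries. Hbegf and Ereg rose from very few or no counts, and Areg, also at 0 counts in the controls, did not pass. Summed over the 10 genes, FPKM (counts divided by gene length and by the library total) was 117 ± 1.36 in the controls and 52.5 ± 1.86 with CCL7 (mean ± SD, n = 3 per group).

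Levels were read as FPKM and changes were tested on the counts. The test was edgeR's quasi-likelihood test with TMM scaling, which sets the libraries against each other by the bulk of their genes, on the 11143 genes whose FPKM averaged 1 or more. Of the 10 genes 7 passed that minimum, and 6 of these 7 fell and 0 rose at an adjusted p under 0.05. In the same test 35.2% of all genes tested were called lower, 33.9% were called higher and 69.1% were called in either direction. The groups did not overlap, lower with CCL7, for the same 6 genes in FPKM and in scaled counts, against 55.7% and 37.8% of all genes tested, and 22.2% of genes did not overlap in FPKM in the other direction. The median log2 change was -0.97 over the 7 growth factor genes and -0.01 over all genes tested. Only 3 of the 7 (Hgf, Igf1 and Gdf3) fell at least 2-fold by this scaling, a size reached by 8.69% of all genes tested. Scaled by the deposited library totals, all 6 fell at least 2-fold (log2 -1.87 to -1.13), and so did 12.3% of all genes tested. TMM values and FPKM differ in scale, because FPKM divides by the library total: scaled by the deposited totals, the log2 change of a typical gene shifted by -0.24. For genes that fell, the FPKM values given below therefore lie further apart between the groups than the tested changes.

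**Figure D1:**
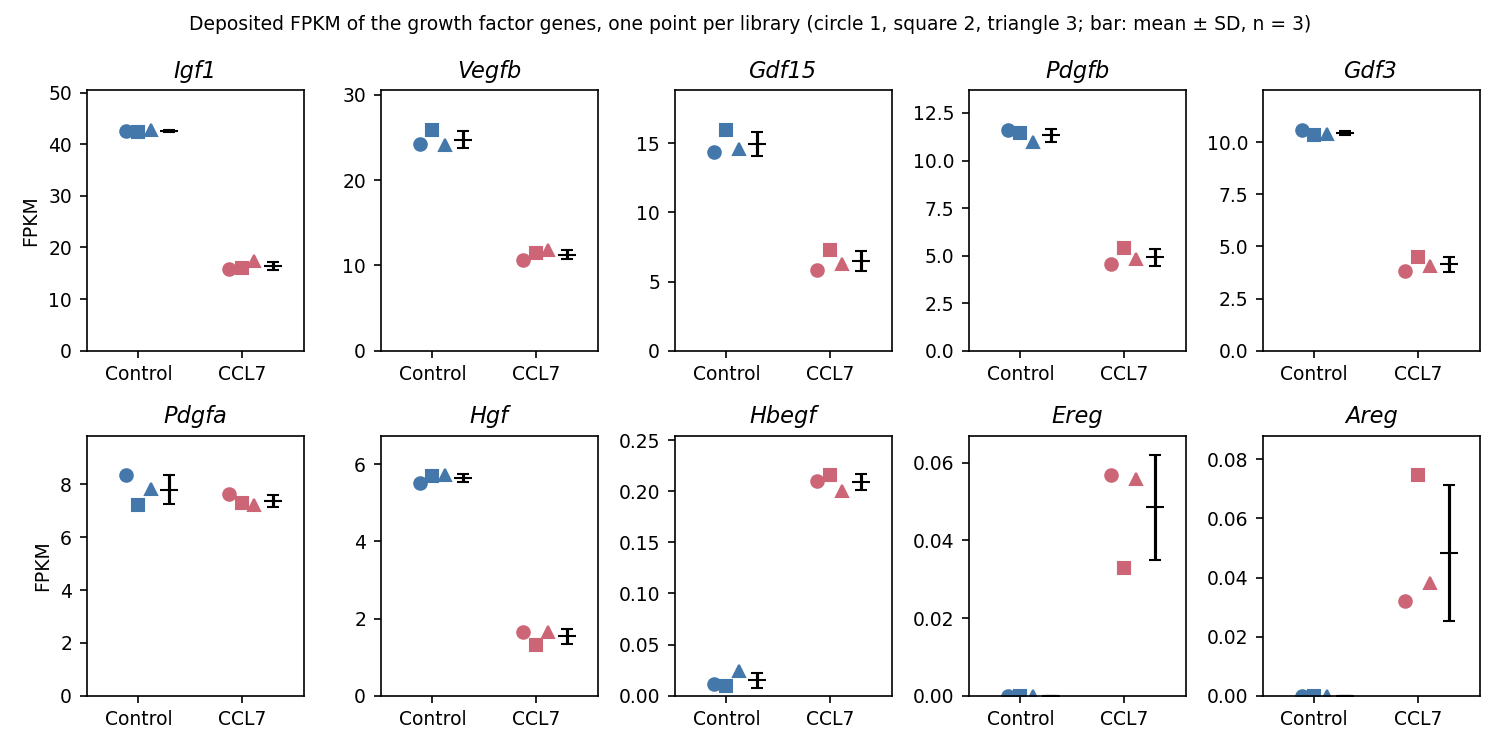
Deposited FPKM of the 10 growth factor genes in the 3 control (blue) and 3 CCL7 (red) libraries, with the mean and SD beside them; each panel has its own linear axis from 0. Igf1, Vegfb, Gdf15, Pdgfb, Gdf3 and Hgf are lower in all 3 CCL7 libraries, Pdgfa overlaps between groups, and Hbegf, Ereg and Areg lie below 0.25 FPKM throughout.

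Igf1 (ENSMUSG00000020053, GRCm38 chromosome 10, 87858265 to 87937042, plus strand, protein-coding) was the most abundant of the genes per length in both groups. The controls had 42.5, 42.4 and 42.7 FPKM, and the CCL7 libraries had 15.8, 16.1 and 17.4 FPKM. The control libraries were nearly equal and the groups lay far apart, without overlap. Its log2 change was -1.14 ± 0.04 (SE, n = 3 per group here and below; edgeR adjusted p = 1.07e-08), from 48444 counts in the 3 controls to 22480 with CCL7. Among all 25711 gene entries Igf1 ranked 1101 by mean FPKM in the controls and 2882 with CCL7. GENCODE M21 lists 8 transcripts of this gene, and counts per gene do not tell them apart. Its share of the summed FPKM of the 10 genes was 36.2% ± 0.54 in the controls and 31.3% ± 1.29 with CCL7 (SD, n = 3 per group; exact 2-sided permutation p = 0.1, the smallest that 3 against 3 libraries allow).

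Hgf (ENSMUSG00000028864, chromosome 5, 16553495 to 16620152, plus strand) encodes a factor that drives growth and movement of epithelial cells through the receptor MET. The controls had 5.51, 5.71 and 5.72 FPKM, and the CCL7 libraries had 1.66, 1.32 and 1.65 FPKM. Every CCL7 library was lower than every control, and CCL7 replicate 2 was the lowest. Hgf fell with a log2 change of -1.63 ± 0.11 (edgeR adjusted p = 4.13e-08), the largest fall among the 7 tested, and 4.51% of all genes tested fell as far or further.

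The PDGF chains form dimers of A chains, of B chains or of both, and bind the receptors PDGFRA and PDGFRB on mesenchymal cells. Pdgfb (ENSMUSG00000000489, chromosome 15, 79995874 to 80014977, minus strand) had 11.6, 11.5 and 11.0 FPKM in the controls and 4.54, 5.41 and 4.80 with CCL7. The groups did not overlap, and CCL7 replicate 2 was the highest of its group. The log2 change was -0.97 ± 0.08 (edgeR adjusted p = 8.57e-07). Pdgfa (ENSMUSG00000025856, chromosome 5, 138976014 to 138997370, minus strand) had 8.35, 7.24 and 7.82 FPKM in the controls and 7.63, 7.30 and 7.21 with CCL7. The groups overlapped in FPKM and did not overlap in TMM-scaled counts, where the highest control had 24.0 CPM (counts divided by the scaled library total) and the lowest CCL7 library 24.3 CPM. With TMM scaling the log2 change was 0.16 ± 0.06 and did not pass (edgeR adjusted p = 0.0559), while with the deposited totals it was -0.08. Over all alternatives it lay between -0.08 and 0.24, with adjusted p from 0.0107 to 0.357, so no direction is given for Pdgfa. The gene 6330403L08Rik overlaps Pdgfa on the other strand and held 1932 control and 1893 CCL7 counts. The strand setting of the counting is not given in the sources used here, so the reads of this pair cannot be told apart.

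The ratio of Pdgfa to Pdgfb within a library does not depend on the scaling between libraries. It was 0.720, 0.632 and 0.714 in the controls and 1.68, 1.35 and 1.50 with CCL7. Pdgfb was thus the more abundant chain per length in all 3 controls and Pdgfa in all 3 CCL7 libraries. The mean went from 0.689 ± 0.049 to 1.51 ± 0.17 (SD, n = 3 per group), and the exact 2-sided permutation p was 0.1, the smallest the 20 assignments of libraries allow. Whether any Pdgfa counts come from 6330403L08Rik, and their part in this ratio, was not tested.

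**Figure D2:**
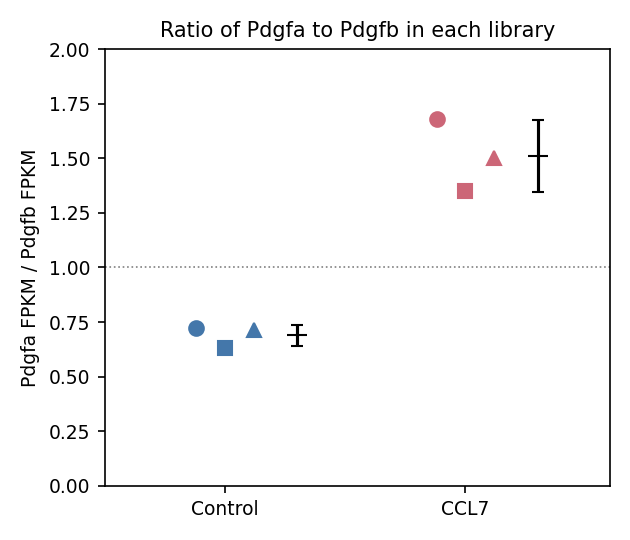
Pdgfa FPKM divided by Pdgfb FPKM in each library (circle, square and triangle for replicates 1, 2 and 3; the bar gives mean ± SD, n = 3). All 3 control libraries lie below a ratio of 1, between 0.632 and 0.720, and all 3 CCL7 libraries lie above it, between 1.35 and 1.68.

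Vegfb (ENSMUSG00000024962, chromosome 19, 6982473 to 6987651, minus strand) encodes a ligand of the receptor FLT1 and of neuropilin 1. It ranked next after Igf1 in level. The controls had 24.2, 25.8 and 24.1 FPKM, and the CCL7 libraries had 10.7, 11.4 and 11.7 FPKM. The lowest control was above the highest CCL7 library, and the log2 change was -0.90 ± 0.05 (edgeR adjusted p = 4.65e-07).

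Gdf15 (ENSMUSG00000038508, chromosome 8, 70629393 to 70632456, minus strand) encodes a circulating factor known to be induced by cell stress and to reduce appetite through the receptor GFRAL. The controls had 14.3, 15.9 and 14.6 FPKM, and the CCL7 libraries had 5.86, 7.31 and 6.30 FPKM. The groups did not overlap, with replicate 2 the highest of each group. Gdf15 fell with a log2 change of -0.97 ± 0.11 (edgeR adjusted p = 4.75e-06). Gdf3 (ENSMUSG00000030117, chromosome 6, 122605403 to 122610087, minus strand) encodes a factor that signals through activin receptors and is known in mouse macrophages as a target of the lipid receptor PPAR gamma. It had 10.6, 10.4 and 10.4 FPKM in the controls and 3.83, 4.51 and 4.06 with CCL7, again without overlap. The log2 change of Gdf3 was -1.10 ± 0.07 (edgeR adjusted p = 4.59e-07), and 7.99% of all genes tested fell as far or further.

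**Figure D3:**
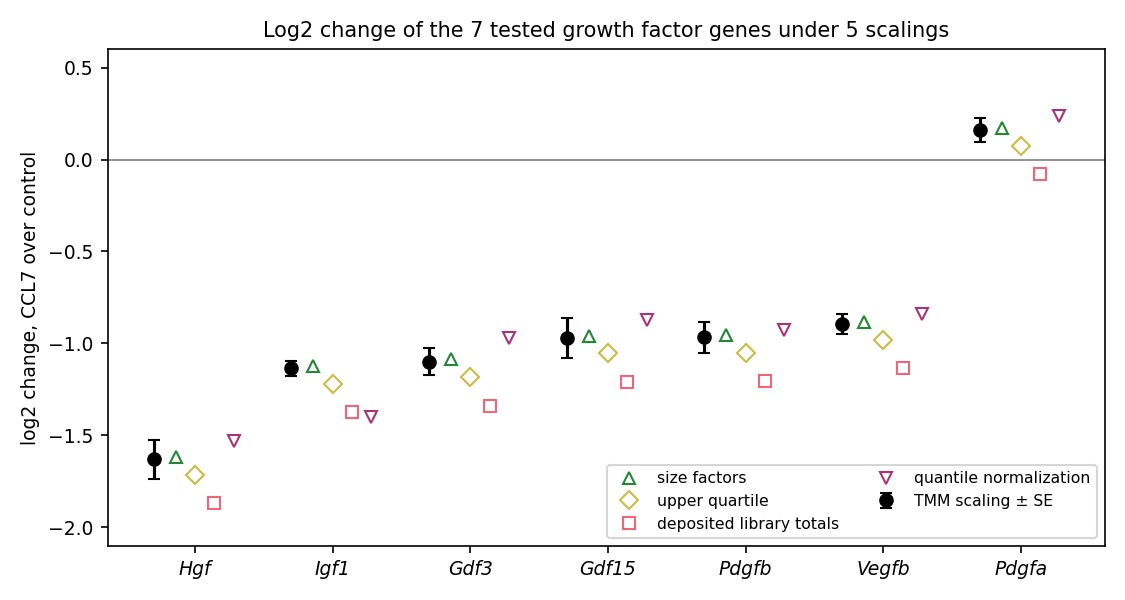
Log2 change with CCL7 over control for the 7 tested genes, with TMM scaling and its SE (black, n = 3 per group) beside size factors, upper-quartile factors, deposited library totals and quantile normalization (open symbols). The 6 genes that fell stay below -0.8 under each of these 5 scalings, while Pdgfa lies between -0.08 and 0.24.

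The remaining members are the EGF receptor ligands, all below the minimum of 1 FPKM, and they were taken from a fit without that minimum. In that fit 19.2% of 25711 genes were called higher, and in 20.1% every CCL7 library lay above every control in scaled counts. Its adjusted p-values, here and below, are not comparable with those of the filtered fit. It also called Krt8 higher, with 0 counts in each control and 52, 0 and 0 with CCL7 (edgeR adjusted p = 1.49e-08). A small adjusted p from this fit therefore does not show that the libraries of a group are alike. For Igf1 the edgeR adjusted p was 1.06e-70 without the minimum and 1.07e-08 with it. Hbegf (ENSMUSG00000024486, chromosome 18, 36504927 to 36515805, minus strand) encodes the heparin-binding EGF-like growth factor. Counts were 2, 2 and 4 without CCL7 and 52, 46 and 42 with it, out of library totals of 34860523 to 51161400. All CCL7 libraries were far above all controls, at a level that stayed low, 0.209 ± 0.008 FPKM (SD, n = 3). The fitted log2 change was 4.08 ± 0.36 (edgeR adjusted p = 8.83e-17), and its size rests on 8 control counts: it was 4.53 without control replicate 3 and 3.80 without control replicate 2.

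Ereg and Areg encode epiregulin and amphiregulin and are neighbours on chromosome 5 on the plus strand. Ereg (ENSMUSG00000029377) spans 91074622 to 91093646 and Areg (ENSMUSG00000029378) spans 91139599 to 91148432, with 46.0 kb and 0 annotated genes between them. No control had a count of Ereg (0, 0 and 0), and the CCL7 libraries had 12, 6 and 10 counts. Taking a floor of 3 counts for each control library, the level was at least 2.98-fold higher, and the gene passed (edgeR adjusted p = 1.32e-04). Areg also stood at 0 in each control, and the CCL7 libraries had 2, 4 and 2 counts. That is no more than the floor on average, so no fold is given, and the gene did not pass (edgeR adjusted p = 0.0888). A count of 0 in the controls allows a level of up to 0.0730 CPM, and this covers counting error only. All 12 nonzero counts of Hbegf, Ereg and Areg were even numbers, and 66.0% of all counts from 1 to 9 in the table were even, against 50.1% of counts of 100 or more. If both mates of a read pair were counted, the fragments behind these genes number about 1 for every 2 counts, and the bound for Ereg would be smaller. With counts divided by 2 and rounded up, Hbegf and Ereg passed (edgeR adjusted p = 1.48e-15 and 3.33e-04) and Areg did not (edgeR adjusted p = 0.128).

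Promoters of Hbegf, Ereg, Pdgfb and Gdf3 were not searched, and this does not mean that RefSeq lists none for them. Promoter sequences of the other 6 of the 10 genes were matched by symbol in RefSeq (GRCm38.p6). Each ran from 250 bases before to 50 bases after an annotated start. They are shown for Areg, which went from 0 to a few counts, and for Igf1 and Vegfb, the most abundant genes that fell, because their letters differ in the elements searched. Capitals mark matches on either strand to the cAMP response element TGACGTCA, its part TGACG, the TATA box TATAAA, the AP-1 site TGACTCA, the GC box GGGCGG and the CHOP-ATF4 composite TGATGNAA. The full response element contains its shorter part on both strands.
Areg promoter, chr5:91139349-91139648, plus strand: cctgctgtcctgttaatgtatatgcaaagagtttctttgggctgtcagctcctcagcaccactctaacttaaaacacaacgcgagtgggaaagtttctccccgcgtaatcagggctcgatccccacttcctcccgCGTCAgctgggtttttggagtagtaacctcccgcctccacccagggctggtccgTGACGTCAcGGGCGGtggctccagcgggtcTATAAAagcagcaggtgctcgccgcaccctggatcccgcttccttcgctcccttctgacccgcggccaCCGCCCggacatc
Igf1 promoter, chr10:87860861-87861160, plus strand: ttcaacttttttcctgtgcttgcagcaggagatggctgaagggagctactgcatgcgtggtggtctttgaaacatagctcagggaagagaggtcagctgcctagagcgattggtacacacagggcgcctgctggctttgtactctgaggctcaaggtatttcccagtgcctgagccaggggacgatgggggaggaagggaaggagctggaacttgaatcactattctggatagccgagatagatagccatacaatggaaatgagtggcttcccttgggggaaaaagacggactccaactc
Vegfb promoter, chr19:6987602-6987901, minus strand: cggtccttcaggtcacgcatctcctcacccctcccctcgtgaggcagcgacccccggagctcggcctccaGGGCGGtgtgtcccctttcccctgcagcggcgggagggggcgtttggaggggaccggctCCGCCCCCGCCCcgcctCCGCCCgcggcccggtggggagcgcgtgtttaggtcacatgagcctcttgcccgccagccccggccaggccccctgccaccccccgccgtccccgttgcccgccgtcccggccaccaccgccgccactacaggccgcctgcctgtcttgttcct
The Areg window held the full response element, whose first base lies 61 bases before the start, and a TATA box 31 bases before it. It also held 2 GC boxes, and the part TGACG on its own 115 bases before the start. Among all 32851 promoter windows of that length in the table, 1.79% held the full element and 13.6% held the TATA box. The Vegfb window held 4 GC boxes and none of the other elements, and 35.7% of all windows held a GC box. None of the searched letters was found in the Igf1 window, nor in the pair of windows each for Gdf15 and Hgf. Both Pdgfa windows held a GC box, and the window from 138994895 to 138995194 also held the part TGACG. The AP-1 site and the composite, present in 5.20% and 3.97% of all windows, were found in none of these 9 windows. A match is a stretch of letters and not a measured site, and an absent match says only that the letters are not in the window. The Igf1 window and both Pdgfa windows lie inside the spans of these genes. Their outermost starts in GENCODE M21, at 87858265 for Igf1 and 138997370 for Pdgfa, were not searched.

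In order of mean FPKM the controls ran Igf1, Vegfb, Gdf15, Pdgfb, Gdf3, Pdgfa, Hgf and Hbegf, with Ereg and Areg at 0. The ranges of neighbours in that order did not overlap down to Hbegf. The closest pair there was Pdgfb (11.3 ± 0.34 FPKM) and Gdf3 (10.4 ± 0.12 FPKM). With CCL7 the order was Igf1, Vegfb, Pdgfa, Gdf15, Pdgfb, Gdf3, Hgf, Hbegf, Ereg and Areg. There Pdgfa (7.38 ± 0.22 FPKM) and Gdf15 (6.49 ± 0.74 FPKM) overlapped, and Ereg and Areg overlapped as well. Pdgfa therefore stood behind Gdf15, Pdgfb and Gdf3 in the controls and ahead of Pdgfb and Gdf3 with CCL7. The coefficient of variation of the 7 tested genes was 0.358% to 7.02% between control libraries and 2.94% to 12.1% between CCL7 libraries, on TMM-scaled counts. It was larger with CCL7 for 6 of the 7. The share of all genes for which it was larger was not computed, so this is not read as a trait of the growth factor genes.

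**Figure D4:**
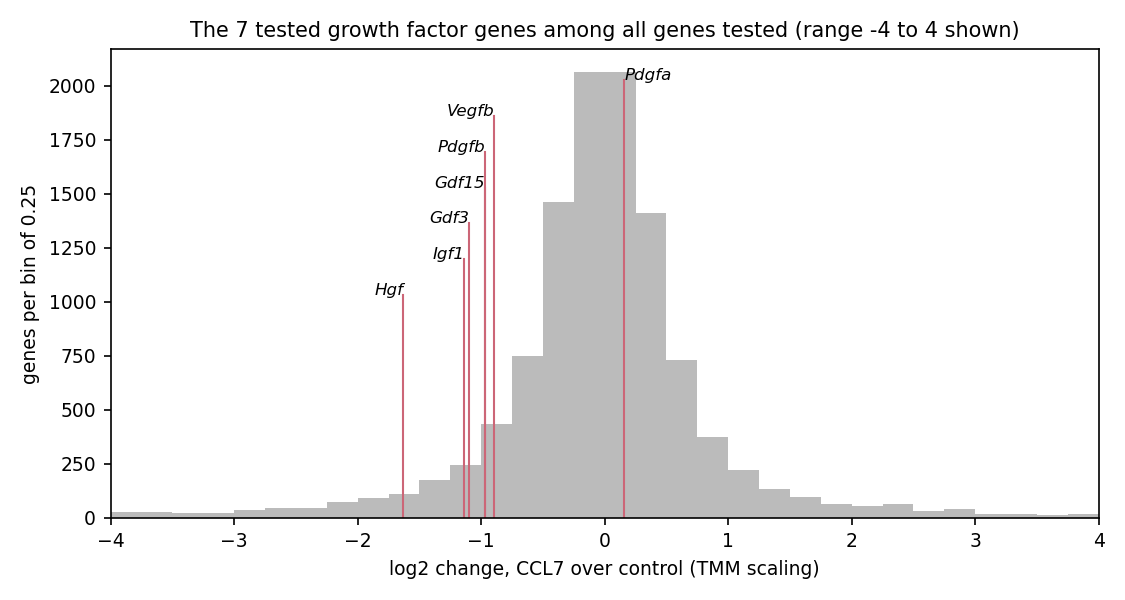
Histogram of the log2 change (CCL7 over control, TMM scaling) of all genes tested, in bins of 0.25 and drawn from -4 to 4, with a line at the value of each of the 7 tested growth factor genes. The lines of Hgf, Igf1, Gdf3, Gdf15, Pdgfb and Vegfb stand in the left flank between -1.63 and -0.90, and Pdgfa stands near 0.

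Related ligands, receptors, binding proteins and processing enzymes, and 8 transcription factors, were read from lists of 82 genes, of which 71 were analysed and 33 passed the minimum of 1 FPKM. Of these 33, 14 rose, 14 fell and 5 did not pass, with a median log2 change of 0.06. The minimum is a mean over both groups, so 1 group alone can carry a gene past it. That was so for Igfbp7, Htra1, Met, Vegfc and Egr1, which averaged under 1 FPKM in the controls. It was also so for Pdgfc and Pparg, which averaged under 1 FPKM with CCL7. Over all genes tested 33.9% were higher and 35.2% lower, as given above. Levels in the following sentences are TMM-scaled CPM, with mean ± SD and n = 3 per group.

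Of 6 tested genes of the IGF system 3 rose and 3 fell. Igfbp4, which encodes an IGF-binding protein, had 363, 375 and 367 CPM in the controls and 101, 102 and 114 CPM with CCL7, without overlap. It fell by 1.80 ± 0.06 on the log2 scale (edgeR adjusted p = 1.10e-09). Irs2, an adaptor of insulin and IGF receptors, fell with a log2 change of -0.88 ± 0.10, and the insulin receptor gene Insr fell with -0.27 ± 0.14. Igfbp7, a secreted protein that binds IGFs weakly, rose by 5.77 ± 0.16 from 0.394 ± 0.064 to 21.5 ± 2.38 CPM. Htra1, a secreted serine protease gene, rose by 2.29 ± 0.20, and Igf2r, which encodes the receptor that carries IGF2 to lysosomes, by 0.46 ± 0.14. The IGF1 receptor gene Igf1r was below the FPKM minimum and had 14.7, 14.8 and 15.4 CPM in the controls and 7.18, 5.71 and 7.84 CPM with CCL7. It fell in the fit without the minimum (-1.07 ± 0.14, edgeR adjusted p = 5.84e-23), where 18.9% of all genes were called lower.

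For HGF, 3 genes of its receptor and activation were tested, of which 2 rose and Plau (0.22 ± 0.17), which encodes urokinase, did not pass. Met, which encodes the HGF receptor, had 2.95, 3.45 and 3.30 CPM in the controls and 95.3, 89.6 and 95.1 CPM with CCL7. The groups were far apart while the libraries of each group were close, and the log2 change was 4.84 ± 0.07 (edgeR adjusted p = 1.30e-11). Ligand and receptor genes thus moved in opposite directions here. Spint1, which encodes an inhibitor of the proteases that activate HGF, rose by 3.14 ± 0.05, from 3.07 ± 0.11 to 27.1 ± 1.33 CPM. Below the minimum, Hpn and Spint2 of this list rose in the fit without it. Hpn went from 76 to 365 counts (edgeR adjusted p = 1.79e-20) and Spint2 from 53 to 193 (edgeR adjusted p = 3.75e-09). Mst1, Mst1r, Hgfac and St14 did not pass in that fit.

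In the list of PDGF and VEGF ligands and receptors 2 of 6 tested genes rose, 3 fell and Vegfa (0.18 ± 0.11) did not pass. Vegfc, a growth factor of lymphatic vessels, rose by 4.61 ± 0.26 from 0.842 ± 0.229 to 21.0 ± 2.11 CPM, and Nrp2, which encodes neuropilin 2, by 1.06 ± 0.08. Pdgfc, a further PDGF chain, fell with a log2 change of -2.20 ± 0.18 from 14.6 ± 2.14 to 3.16 ± 0.49 CPM. Nrp1, which encodes a co-receptor of VEGFB, fell (-1.18 ± 0.08), and so did the VEGF receptor gene Kdr (-0.66 ± 0.10). The receptors of the PDGF chains were scarce: Pdgfra had 16 and 14 counts and Pdgfrb 53 and 166 counts in the 3 controls and the 3 CCL7 libraries. Pdgfrb rose in the fit without the minimum (1.64 ± 0.37, edgeR adjusted p = 9.72e-07). Flt1, which encodes the VEGFB receptor, went from 182 to 20 counts and fell in that fit (-3.12 ± 1.46, edgeR adjusted p = 5.56e-16), with 0 counts in CCL7 replicate 2. Flt4, which encodes the VEGFC receptor, fell from 68 to 29 counts (-1.18 ± 0.40, edgeR adjusted p = 0.0281).

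In the list of EGF ligands, their receptors and their release, 3 of the 6 tested genes rose and 3 fell. No receptor gene was among these 6. Rhbdf2, which encodes the inactive rhomboid protein that carries the protease ADAM17 to the cell surface, had 53.6, 54.2 and 54.3 CPM in the controls and 164, 154 and 155 CPM with CCL7. It rose by 1.55 ± 0.03 (edgeR adjusted p = 1.07e-09), without overlap. Errfi1, a feedback inhibitor of the EGF receptor, rose by 1.27 ± 0.08. Adam17, which encodes the protease that releases HBEGF, amphiregulin and epiregulin, rose by 0.83 ± 0.07. Adam10, which encodes a related protease, fell (-0.67 ± 0.07), and so did Frmd8 (-0.36 ± 0.02), whose protein binds the inactive rhomboids, and Cd9 (-0.32 ± 0.05), a tetraspanin gene whose protein binds the membrane form of HBEGF. The receptor gene Egfr was below the minimum and rose in the fit without it (0.80 ± 0.05, edgeR adjusted p = 1.65e-07), from 3.51 ± 0.20 to 5.91 ± 0.09 CPM. Nrg1 and Nrg2, which encode the neuregulins that bind ERBB3 and ERBB4, moved apart at low level in that fit. Nrg1 rose from 2 to 229 counts (edgeR adjusted p = 1.21e-36), and Nrg2 fell from 290 to 7 counts (edgeR adjusted p = 5.53e-40).

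Of 4 tested genes of activin receptors and precursor processing, Acvr1b, which encodes a type I receptor used by GDF3, rose by 0.86 ± 0.04. Furin, a protease gene for growth factor precursors, fell (-0.26 ± 0.07), and Acvr2a (0.03 ± 0.05) and Pcsk7 (0.06 ± 0.07) did not pass. Acvr2b, which encodes a type II activin receptor, was below the minimum and fell in the fit without it, from 4.81 ± 0.22 to 2.18 ± 0.54 CPM (-1.09 ± 0.23, edgeR adjusted p = 3.81e-10).

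Among 8 transcription factor genes listed because their proteins are known to act on genes of these growth factors, 3 rose, 4 fell and Trp53 (-0.12 ± 0.06) did not pass. Pparg, which encodes the lipid receptor that drives Gdf3 in mouse macrophages, had 32.0, 30.9 and 30.2 CPM in the controls and 2.54, 3.05 and 1.72 CPM with CCL7. It fell by 3.67 ± 0.24 on the log2 scale (edgeR adjusted p = 4.14e-09). Atf4 (0.56 ± 0.03) and Ddit3 (0.83 ± 0.11), which encode stress factors known to raise Gdf15, rose, whereas Gdf15 itself fell. Egr1, which encodes a factor that binds the PDGFA promoter in human and rodent cells, rose by 4.74 ± 0.27, from 1.04 ± 0.30 to 28.2 ± 2.13 CPM. Sp1 (-0.41 ± 0.10), Creb1 (-0.26 ± 0.08) and Rxra (-0.22 ± 0.07) fell. No link between these factors and the growth factor genes was tested.

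**Figure D5:**
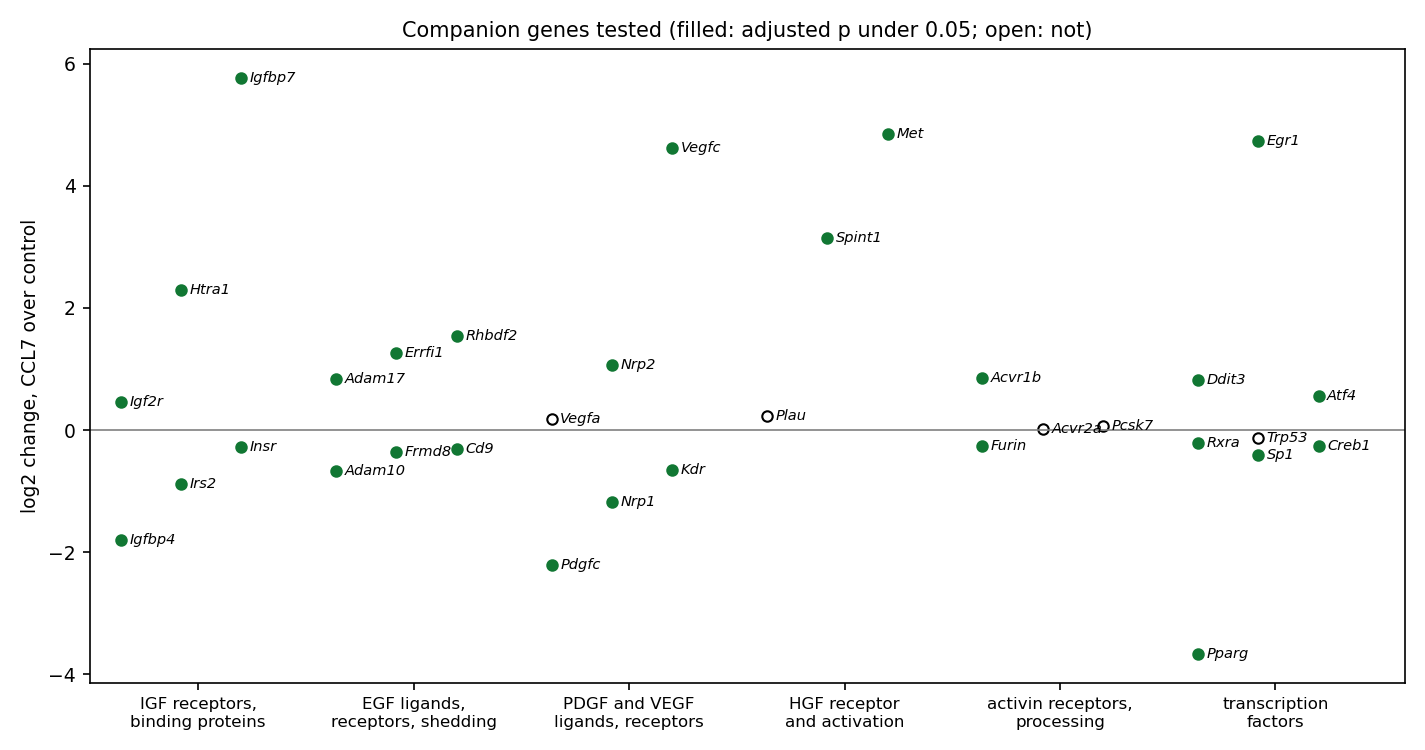
Log2 change with CCL7 over control (TMM scaling) of the 33 companion genes tested, by list; filled points had an edgeR adjusted p under 0.05 and open points did not. Met, Igfbp7, Vegfc and Egr1 rose by more than 4 on the log2 scale, and Pparg, Pdgfc and Igfbp4 fell the furthest.

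The cells carried the markers of their label. All 8 macrophage markers were tested, and their summed level was 15740 to 16470 CPM in the controls and 35400 to 37610 CPM with CCL7. Of the 8, 6 rose, Cd68 fell and Mertk did not pass. Fibroblasts are a known source of Igf1 and Hgf: 7 stromal markers were analysed, all below the FPKM minimum, with a summed level of 1.22 to 2.20 CPM in the controls and 1.59 to 5.02 CPM with CCL7. In the fit without the minimum 3 of the 7 were called higher: Dcn from 5 to 96 counts, Col3a1 from 5 to 51 and Pdgfrb from 53 to 166. Col1a1, Col1a2, Cxcl12 and Pdgfra did not pass. For Col3a1 the groups overlapped, with 4, 0 and 1 counts in the controls and 40, 2 and 9 with CCL7. CCL7 replicate 1 stood apart with 62 counts of Dcn and 40 of Col3a1, and it alone held the epithelial marker Krt8 (52 counts) and the monocyte marker Plac8 (24 counts). The fit without the minimum called Krt8 and Plac8 higher from that library alone. Without CCL7 replicate 1 the same 6 growth factor genes were called lower. The mast cell and basophil markers Cpa3 and Kit summed to 12.5 to 13.0 CPM in the controls and 0.774 to 1.33 CPM with CCL7, nearly all of it Kit. Of the endothelial markers Vwf fell from 108 ± 2.84 to 54.1 ± 8.63 CPM and Kdr from 22.0 ± 2.12 to 13.9 ± 0.90 CPM. Pecam1 rose from 20 to 93 counts in the fit without the minimum, and Cdh5 and Tek did not pass. Neutrophil markers summed to 0.775 to 1.08 CPM in the controls and 10.7 to 16.1 CPM with CCL7, mostly S100a8, with 0 and 2 counts of Ly6g. Camp also rose, from 10 to 158 counts, in the fit without the minimum, where Ly6g, Elane, Ltf and S100a9 did not pass. Monocyte markers summed to 1.22 to 1.90 CPM in the controls and 3.47 to 4.72 CPM with CCL7, where Ly6c2 rose from 5 to 425 counts and Ccr2 fell from 193 to 60. Dendritic cell markers went from a range of 0.310 to 0.528 CPM to one of 1.47 to 2.20 CPM, with Xcr1 and Ccr7 called higher. Epithelial markers summed to 0.103 to 0.166 CPM in the controls and 0 to 1.86 CPM with CCL7. Chondrocyte markers, looked at because the extraction text also names chondrocytes, were at no more than 1.51 CPM, with Acan and Col2a1 at 0 counts in the controls. Lymphoid and erythroid markers were at no more than 0.336 CPM. The part of these markers in the falls was not tested. In bulk RNA a smaller number of producing cells and less RNA per cell cannot be told apart.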

How the data were processed

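Bulk RNA-seq of 6 mouse macrophage libraries was analysed from the deposited table. The deposited counts are raw whole numbers per gene, going by their header and values. FPKM was computed by the authors from counts, gene length and library total, and for all 10 genes the length it implies equals the summed exon length in GENCODE M21 (GRCm38), from which coordinates are given. The submitters' processing notes list Bowtie (0.12.2) along with mm8 and mm9 as builds. Neither the counting program nor its strand setting is given in the sources used here.

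The members and lists were chosen with earlier results of these data known. Counts were tested with edgeR 4.0.16 (quasi-likelihood, TMM, 2-sided, Benjamini-Hochberg) on genes averaging 1 FPKM or more, and genes below it in a fit without the minimum. SEs come from SDs of log2 CPM, with 0.5 added to each count. The named genes are the 10 members, the 2 largest rises and falls of each list, and called receptors, below the minimum too; other genes named were chosen after their values were seen. Alternatives used limma 3.58.1 and DESeq2 1.42.0. The filtered fit was also run on simulated data. Far fewer genes changed there than were called here, so that run does not test the scaling between libraries.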

Additional observations from a re-analysis of the deposited data

How the results depend on the processing

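Across 17 alternatives the 6 growth factor genes that fell stayed called lower. The number of growth factor genes called higher was 0 and became 1 with size factors and quantile normalization, 2 with filterByExpr and 3 without a filter, and 0 to 1 with a library left out; these were Pdgfa and, where the filter admitted them, Hbegf and Ereg. Pdgfa was called higher with size factors (0.17, adjusted p = 0.0426), with quantile normalization (0.24), without a filter (0.21), with filterByExpr (0.19) and without control replicate 1 (0.21), and turned negative with deposited totals (-0.0780) and with limma on log2(FPKM + 1) (-0.0691) or log2(FPKM + 0.1) (-0.0770). The replicate block gave 6 lower and 0 higher. Replicate numbers are not tied to a shared animal or day in the labels. After each gene's group mean was subtracted from its log2 CPM, same-numbered libraries correlated at -0.0849, -0.0350 and -0.0166. Companion genes numbered 24 higher and 22 lower without a filter and 22 and 23 with filterByExpr, as more genes were tested. Over all genes, 2306 were higher and 5949 lower with deposited totals, 2288 and 5936 with limma on log2(FPKM + 1), and 2284 and 5916 on log2(FPKM + 0.1), against 3779 and 3919. The halved counts and quantile normalization were chosen after seeing the data. With 8 and 28 counts in all, Areg and Ereg are limited by depth.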
